A study of Mus musculus with 4 samples.

Results

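The major histocompatibility complex (MHC) class II genes and their regulator were examined in chromatin accessibility profiles of large peritoneal macrophages (LPMs), the main resident macrophage of the peritoneal cavity. The 10 genes were H2-Ab1, H2-Aa, H2-Eb1, H2-DMa, H2-DMb1, H2-DMb2, H2-Oa, H2-Ob, Cd74 and Ciita. Overlapping peaks (by 1 bp or more) of the 4 libraries were joined into regions, and a region was taken when the nearest transcription start site (TSS) to its midpoint belonged to one of the 10 genes or when it overlapped the body of one. This gave 51 of 70744 regions, of which 35 lay in the class II gene cluster on chromosome 17, 8 at Cd74 on chromosome 18 and 8 at Ciita on chromosome 16. All positions are on mm10, the mouse genome build of the peak lists.

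ATAC-seq, which marks open chromatin by where the transposase Tn5 can insert, had been done on 40000 sorted LPMs per library from C57BL/6 mice of 9 weeks. The groups were Rxrab fl/fl, with replicates 1 and 3, and LysMCre+ Rxrab fl/fl, with replicates 1 and 2. Both groups carried floxed alleles of Rxra and Rxrb, the genes of the retinoid X receptors RXRα and RXRβ, and the second group also carried Cre under the lysozyme M promoter, which is active in myeloid cells. The sources used here do not tie the libraries to single animals, so the tests measure the spread between these libraries, which may be technical. LPMs were sorted as F4/80 high and MHC class II low cells, so the class II protein level had itself been used to choose the cells in both groups. Rxrb lies on the same chromosome, 54.0 kb from H2-Oa, and the floxed allele there was shared by both groups.

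MHC class II molecules carry peptides from ingested proteins to the cell surface, where CD4+ T cells read them. H2-Ab1 and H2-Aa encode the β and α chains of I-A, and H2-Eb1 the β chain of I-E, whose α chain is not made in C57BL/6 mice. Cd74 encodes the invariant chain, which fills the peptide groove until H2-DM exchanges its remnant for peptide, and H2-DO, made by H2-Oa and H2-Ob, restrains H2-DM. Ciita encodes the co-activator CIITA, which does not bind DNA itself but docks on the RFX, CREB and NF-Y proteins that sit on the X and Y boxes of class II promoters.

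Because that docking site defines the family, the X-Y modules found in these data are printed first. The search used an X box of CCNNGNNAC, followed on the same strand by ATTGG, the reverse complement of the Y box CCAAT, with 20 to 36 bases between. RefSeq promoter windows (GRCm38.p6, the build called mm10) running from 250 bases before to 50 after a start site were held for 7 of the 10 genes, in 8 windows. The module was found in the windows of 3 genes (H2-DMb1, H2-Oa and H2-Ob) and in 282 of 32851 promoter windows (0.858%). With at most 1 of the 5 fixed letters of the X box different, a rule chosen after the sequences were seen, it was found at 6 genes and in 11.7% of promoter windows. In the following sequences, read 5′ to 3′ on the transcript strand, capitals mark the X box and then the Y box.
H2-DMb1 (chr17:34153081-34153146, plus strand): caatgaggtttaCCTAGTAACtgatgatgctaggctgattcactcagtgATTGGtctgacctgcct
H2-DMb2 (chr17:34145110-34145175, plus strand): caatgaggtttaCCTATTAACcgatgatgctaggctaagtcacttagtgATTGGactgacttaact
H2-Oa (chr17:34092287-34092352, plus strand): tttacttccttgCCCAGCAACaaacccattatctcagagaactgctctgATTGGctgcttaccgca
H2-Ob (chr17:34238802-34238864, plus strand): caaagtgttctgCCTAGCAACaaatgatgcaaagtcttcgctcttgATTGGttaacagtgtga
H2-Aa (chr17:34287855-34287920, minus strand): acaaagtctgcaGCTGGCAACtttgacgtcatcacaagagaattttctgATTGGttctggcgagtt
H2-Eb1 (chr17:34305760-34305824, plus strand): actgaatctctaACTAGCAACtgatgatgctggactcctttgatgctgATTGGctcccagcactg

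Counted from 1 at the 5′ end of the X box, the departures were G5T at H2-DMb2, C1G at H2-Aa and C1A at H2-Eb1. The windows of the paralogs H2-DMb1 and H2-DMb2 shared 57 of 66 letters. Accessibility differed between these modules. Those of H2-DMb1 and H2-Aa lay inside a peak in all 4 libraries and that of H2-Eb1 in 3 libraries, whereas those of H2-Oa, H2-Ob and H2-DMb2 lay in no peak of any library. The H2-DMb2 module belongs to the downstream of its 2 annotated start sites, and the open region of that gene was at the upstream one.

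Modules with an exact X box were also found 100 bp or less from the strongest summit of 6 of the 51 regions (11.8%), against 308 of all 70744 (0.435%). The 6 were H2-Ab1 at its promoter and 1.58 kb upstream, H2-Eb1 0.841 kb upstream, H2-Oa 12.6 kb upstream, the H2-DMb1 promoter already shown, and a Ciita region 2.21 kb upstream that was called in 1 library. The 3 upstream modules of the class II genes are printed because they lie under peaks away from the proximal promoter, all on the minus strand.
H2-Ab1, 1.58 kb upstream (chr17:34261673-34261738, minus strand): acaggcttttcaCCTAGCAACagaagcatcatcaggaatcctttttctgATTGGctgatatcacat
H2-Eb1, 0.841 kb upstream (chr17:34304918-34304983, minus strand): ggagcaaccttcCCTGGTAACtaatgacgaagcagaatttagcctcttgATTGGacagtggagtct
H2-Oa, 12.6 kb upstream (chr17:34079750-34079814, minus strand): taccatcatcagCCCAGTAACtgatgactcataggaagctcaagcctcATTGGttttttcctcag

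The first of these lay under a peak in all 4 libraries and the other 2 in 3 libraries, each time without Rxrab fl/fl replicate 3. A match is a description of letters and not a measured binding site.

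The libraries differed in how many peaks they held, and this bears on every count. Rxrab fl/fl replicates 1 and 3 held 38048 and 16097 peaks, and LysMCre+ Rxrab fl/fl replicates 1 and 2 held 65421 and 55581. Over the 15199 regions called in all 4 libraries, the median pileup, that is the number of extended read ends stacked at the summit, was 97, 20, 99 and 65 in the same order. A region missing from Rxrab fl/fl replicate 3 may be closed or undetected there, and which was not tested. A region 20.1 kb upstream of H2-Oa was missing in that library with pileups of 42, 61 and 45 in the others, whereas one in H2-Ob was called there on a pileup of 12 with 30, 56 and 51 in the others. Of the regions called in exactly 3 libraries, 99.3% of all and 17 of 17 of these genes lacked only that library. At the targeted genes, the strongest Rxra region had fold enrichments (peak over background) of 18.7, 9.28, 20.2 and 14.9 in that order, and the strongest Rxrb region 8.36, 5.71, 7.17 and 4.79. Peaks at these genes do not check the deletion itself.

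The class II cluster was open in LPMs of both genotypes. Fold enrichment, the ratio of the pileup at a summit to its local background, is given in the order Rxrab fl/fl replicates 1 and 3, then LysMCre+ Rxrab fl/fl replicates 1 and 2. Of the 51 regions, 28, 10, 47 and 38 were called in that order, which is 54.9%, 19.6%, 92.2% and 74.5%, against 52.02%, 21.9%, 90.7% and 77.2% of all regions. All 10 regions of Rxrab fl/fl replicate 3 were on chromosome 17, and that library held no peak at Ciita or Cd74. The share of regions with their midpoint within promoter limits, set at 1 kb before and 200 bp after a TSS, was 12 of 51 (23.5%), against 18.1% of all regions.

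**Figure D1:**
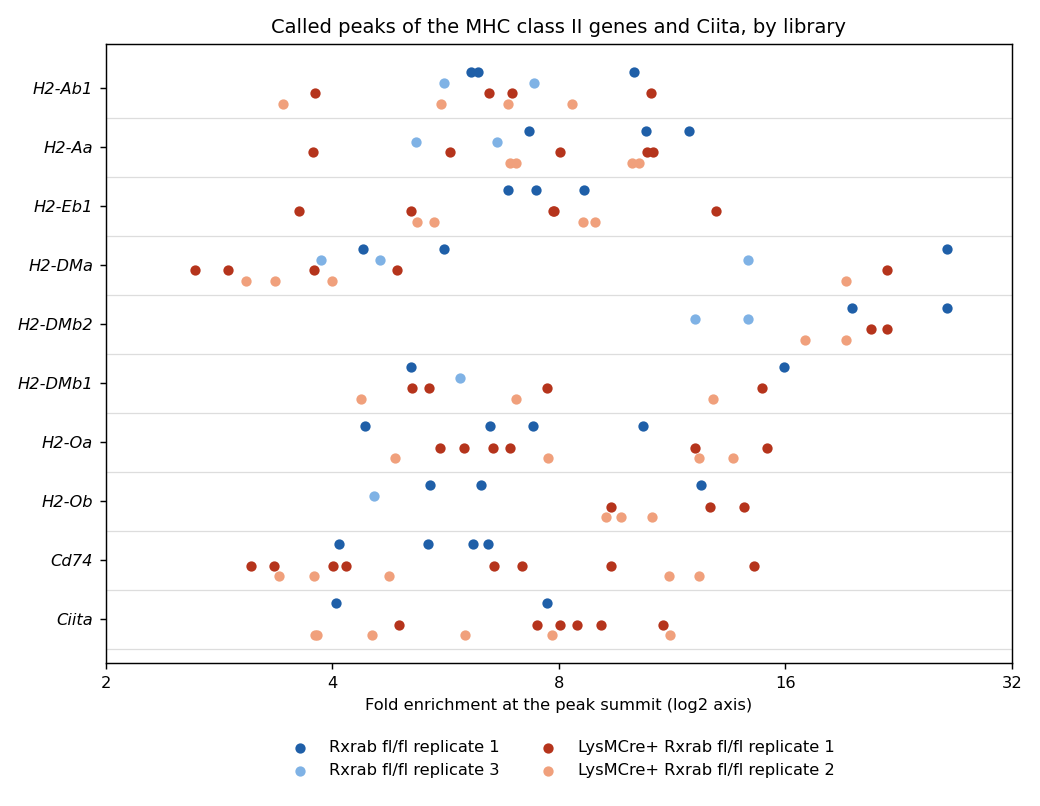
Fold enrichment at the summit (log2 axis) of the regions called at each of the 10 genes, 1 point a region and library (its strongest peak there), coloured by library; a region shared by H2-DMa and H2-DMb2 is drawn for both. The H2-DMa and H2-DMb2 peaks reach 26.2 and the Ciita peaks no more than 11.2, and Rxrab fl/fl replicate 3 has no point at H2-Oa, H2-Eb1, Cd74 or Ciita.

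The genes of the presenting molecules had open promoters. The H2-Ab1 promoter region (chr17:34263016-34263541) was called in every library but Rxrab fl/fl replicate 3, with fold enrichments of 6.11, 6.93 and 6.86. These 3 values lie close together, on pileups of 49, 55 and 64. The region 1.58 kb upstream (chr17:34261381-34261922), which holds the printed module, had 6.24, 7.41, 6.46 and 5.59. Here the shallowest library was the highest, and the other 3 did not separate by genotype. The strongest H2-Ab1 region, 5.31 kb upstream (chr17:34257594-34258243), had 10.1, 5.63, 10.6 and 8.33, and after centring its 4 values lay between −0.53 and −0.42 on the log2 scale.

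At H2-Aa the promoter region (chr17:34287683-34288091) had fold enrichments of 10.5, 5.17, 10.5 and 6.90. The strongest H2-Aa region, 8.60 kb upstream and intergenic (chr17:34295981-34296872), had 11.9, 6.62, 10.7 and 10.0. In both, the lowest value was that of Rxrab fl/fl replicate 3, and the other Rxrab fl/fl library lay level with or above the LysMCre+ libraries. H2-Eb1 had a pair of neighbouring promoter regions, neither called in Rxrab fl/fl replicate 3. The region centred 0.841 kb upstream (chr17:34304756-34305295) had 8.64 in Rxrab fl/fl replicate 1, and then 7.88 and 8.93. The one at the start site (chr17:34305622-34305996) had 7.45, and then 7.85 and 8.60. At both H2-Eb1 regions the 3 values differed little.

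**Figure D2:**
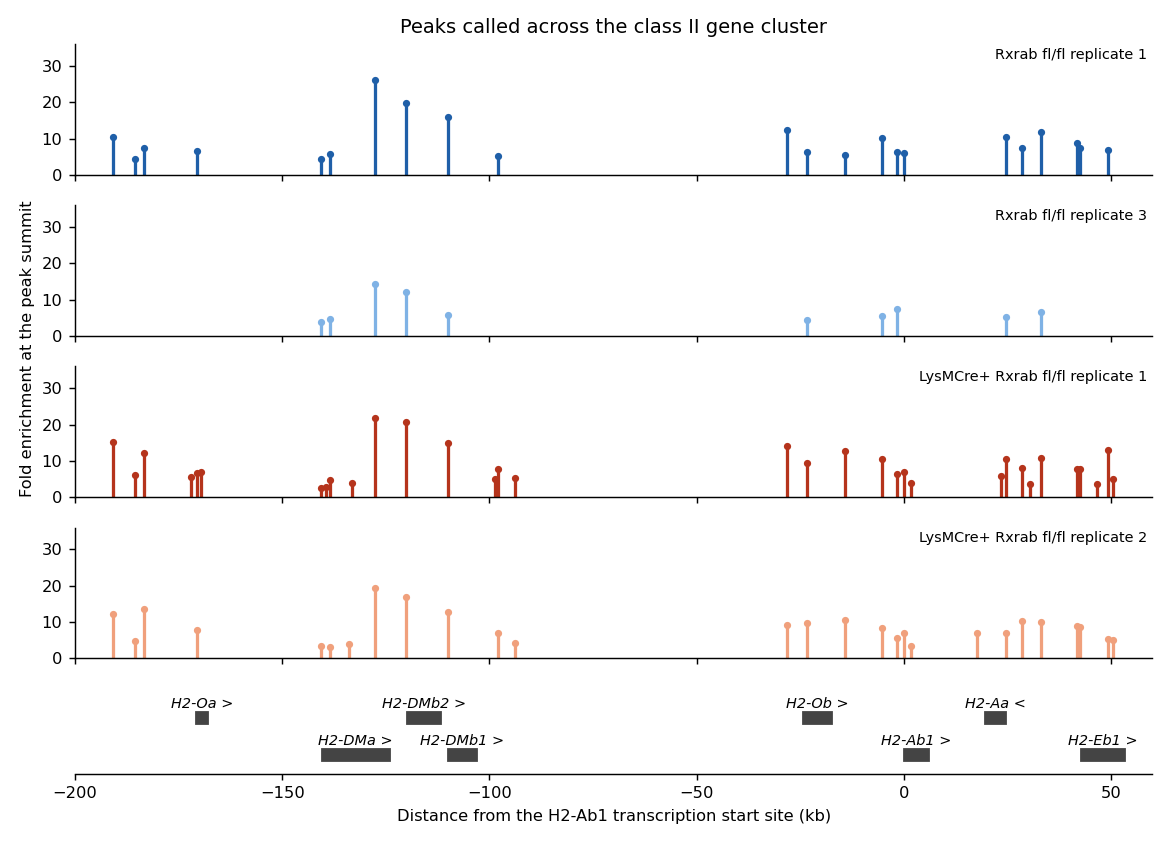
The strongest peak of each of the 35 regions of the class II cluster in each library, placed by distance in kb from the H2-Ab1 start site, with the height showing fold enrichment and the genes drawn to scale with their direction. The stems at H2-DMa exon 2 and the H2-DMb2 promoter are the tallest in each of the 4 libraries, and the LysMCre+ libraries show additional low stems.

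The peptide exchange genes held the most open chromatin of the family. The region with the highest fold enrichment of all 51 (chr17:34135278-34135943) covered exon 2 of H2-DMa and lay 7.62 kb upstream of H2-DMb2. Its values were 26.2, 14.3, 21.8 and 19.3, on pileups of 230, 53, 214 and 162, and by p value it stood within the top 3.37%, 7.57%, 2.26% and 1.53% of the peaks of each library. RefSeq places it in the 5′-UTR, since both RefSeq start sites of H2-DMa are further upstream, but 2 of the 8 H2-DMa transcripts of GENCODE vM21 start inside it, 87 and 113 bp downstream of the summit. A module with 1 X box letter different (C2T) was found in it. No module was found in the promoter windows held for H2-DMa, which may not cover both start sites. The summit windows of the 2 H2-DMa promoter regions held none either. Fold enrichment was low at the 2 RefSeq H2-DMa promoters. The region at the first (chr17:34122276-34122885), which also covers a start site of the divergent gene Brd2, had 4.39, 3.86, 2.62 and 3.36. The one at the second (chr17:34124649-34124936) had 5.63, 4.63, 4.88 and 3.07. Their pileups were not low, at 90, 21, 62 and 53 for the first and 79, 19, 84 and 38 for the second. The local background was high, at 19.7, 4.7, 23 and 15.1 for the first and 13.2, 3.32, 16.4 and 11.7 for the second. Over all regions the median background was 3.56, 1.8, 2.52 and 2.5.

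The H2-DMb2 promoter region (chr17:34142517-34143546) had 19.6, 12.1, 20.8 and 16.98. The H2-DMb1 promoter region (chr17:34152763-34153652) had 15.9, 5.91, 14.9 and 12.8. At both paralogs the lowest value was that of Rxrab fl/fl replicate 3 and the other Rxrab fl/fl library lay among or above the LysMCre+ libraries. The reads had been filtered at a mapping quality of 30, and what this removed from the paralogs was not tested. Fold enrichment of the H2-DO genes came from distal and intronic regions. Neither H2-Oa nor H2-Ob had a region with its midpoint within the promoter limits. An H2-Oa intronic region (chr17:34092491-34092998) reached into those limits, with its midpoint 0.366 kb after the start site. It had 6.49 in Rxrab fl/fl replicate 1, and then 6.54 and 7.74. The strongest H2-Oa region, 20.1 kb upstream (chr17:34072063-34072459), had 10.3 in Rxrab fl/fl replicate 1, and then 15.1 and 12.3, and the H2-Oa region with the printed module had 7.39, and then 12.1 and 13.6. The strongest H2-Ob region, 3.76 kb upstream (chr17:34234958-34235323), had 12.4, and then 14.1 and 9.24. An H2-Ob intronic region 1.02 kb from the start site (chr17:34239469-34240379) was called in all 4 libraries, at 6.30, 4.55, 9.38 and 9.67, and was higher in both LysMCre+ libraries.

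Cd74 was called in 3 libraries at most. The Cd74 promoter region (chr18:60803545-60804049) had 6.15 in Rxrab fl/fl replicate 1, and then 4.17 and 3.78, on pileups of 65, 44 and 38. The strongest Cd74 region, 14.4 kb upstream (chr18:60789206-60789662), ran the other way, with 6.44, and then 14.5 and 11.2, on pileups of 24, 72 and 60. A further region 8.56 kb upstream had 5.36, and then 9.40 and 12.3. A small region 0.721 kb upstream of the start site was called in LysMCre+ Rxrab fl/fl replicate 1 alone, at 3.12. Thus the proximal and the distal Cd74 regions differed in which genotype was higher, over 1 library against 2.

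Ciita is transcribed from alternative promoters, of which type I is used in dendritic cells, type III in B cells and type IV after interferon gamma. RefSeq start sites for all 3 are annotated. No region was called within the limits of the type I start site in any library. Just upstream of the type III start site a region was called in LysMCre+ Rxrab fl/fl replicate 2 alone (chr16:10487952-10488151), at 3.79 on a pileup of 10. A region at the type IV start site (chr16:10489115-10489980) was called in both LysMCre+ libraries, at 7.49 and 4.51 on pileups of 24 and 12, and in neither Rxrab fl/fl library. Its strongest summit lay 0.513 kb before that start site.

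The strongest Ciita region lay in an intron, 20.8 kb from the first start site (chr16:10500704-10501084), and was the only one shared by the genotypes. It had 7.71 in Rxrab fl/fl replicate 1, and then 11.0 and 11.2, on pileups of 28, 36 and 30, so the pileups differed less than the ratios. Its summit window is printed because it was the one Ciita element open in both genotypes. The capitals mark a GAGGAAGT, the consensus of the macrophage factor PU.1, which was found in 3 of the 51 summit windows (5.88%) and in 9.30% of all.
Ciita intronic region (chr16:10500782-10500982, plus strand): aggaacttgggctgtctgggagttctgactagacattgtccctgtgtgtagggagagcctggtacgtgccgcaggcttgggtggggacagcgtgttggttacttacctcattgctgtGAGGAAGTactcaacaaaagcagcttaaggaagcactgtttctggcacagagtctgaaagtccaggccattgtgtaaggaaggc

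**Figure D3:**
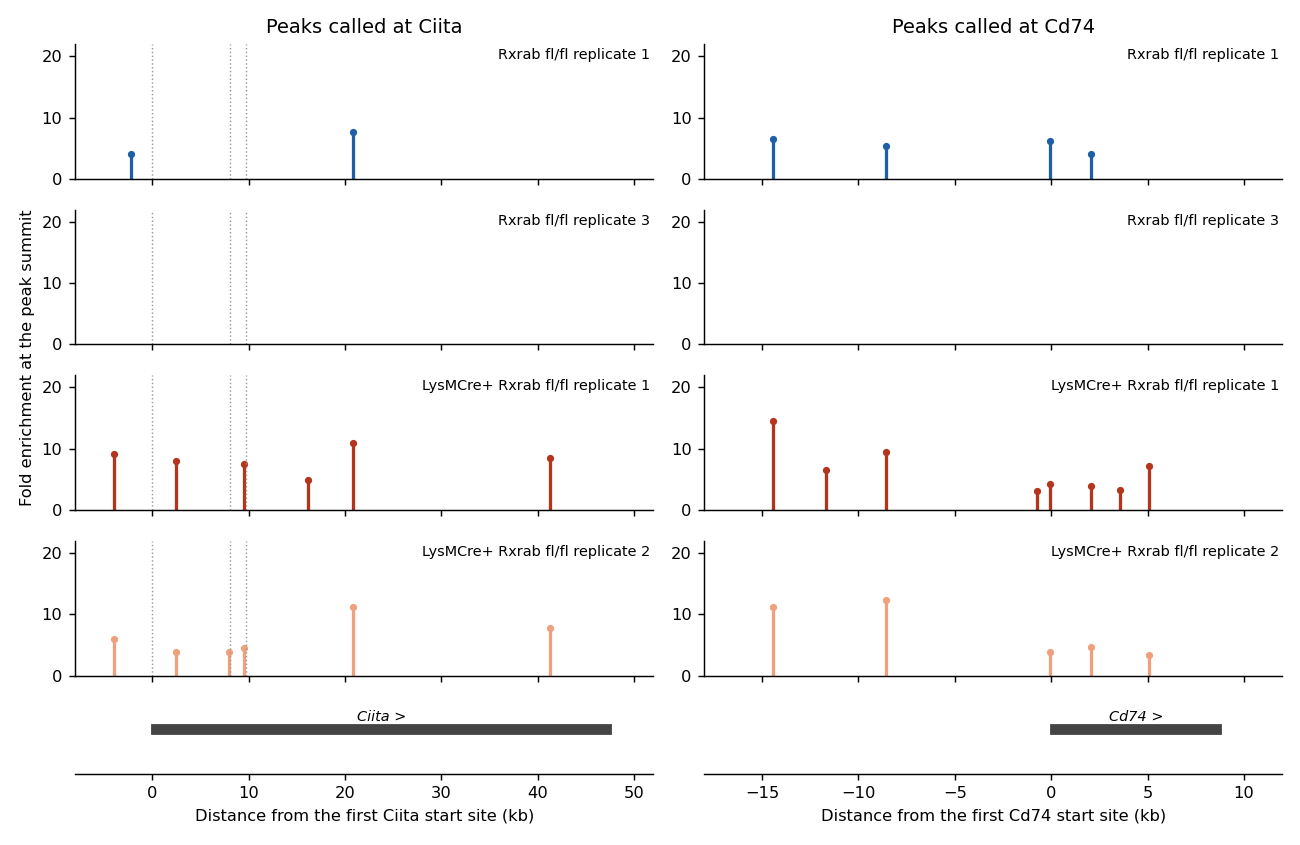
Fold enrichment of the regions called at Ciita and at Cd74 in each library, against the distance in kb from the first start site of each gene; dotted lines mark the 3 Ciita start sites. Rxrab fl/fl replicate 3 is empty at both genes, and Ciita has 2 regions in Rxrab fl/fl replicate 1 against 6 in each LysMCre+ library. Of all regions, Rxrab fl/fl replicates 1 and 3 called 52.02% and 21.9%, and LysMCre+ Rxrab fl/fl replicates 1 and 2 called 90.7% and 77.2%.

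Whether RXR deficiency changed which regions were called was asked next. Both LysMCre+ libraries and neither Rxrab fl/fl library called 8 of the 51 regions (15.7%), against 16133 of all 70744 regions, which is 22.8%. The reverse pattern, Rxrab fl/fl libraries alone, was seen at 0 of the 51, against 32 of all regions (0.0452%). The share of the 51 was thus below the background and is not a result about these genes. Ciita held 4 of the 8 (the type IV start site and regions 4.00 kb upstream, 2.45 kb downstream and 41.3 kb downstream of the first start site), and H2-DMb1, H2-Ab1, H2-Eb1 and Cd74 held 1 each. That is 4 of 8 Ciita regions and 4 of the other 43, a split that was seen after the values and has no test.

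The 4 Ciita regions were modest. The one 4.00 kb upstream (chr16:10475892-10476257) had 9.09 and 6.00, that 2.45 kb downstream (chr16:10482322-10482727) had 8.03 and 3.81, and that 41.3 kb downstream (chr16:10521200-10521577), which is nearer to the start of Dexi, had 8.46 and 7.83. Their pileups ran from 8 to 24 with the type IV region included. A Ciita region 2.21 kb upstream (chr16:10477757-10477956) was called in Rxrab fl/fl replicate 1 alone, at 4.04 on a pileup of 11. Whether regions of the size of the 4 could have been called in the Rxrab fl/fl libraries was not tested. The other 4 regions had fold enrichments of 5.39 and 4.37 at H2-DMb1 (16.3 kb downstream), 3.79 and 3.44 at H2-Ab1 (1.77 kb downstream, in a coding exon), 5.09 and 5.18 at H2-Eb1 (7.77 kb downstream) and 7.15 and 3.39 at Cd74 (5.09 kb downstream).

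When each library was reduced to its 16097 peaks of lowest p value, as many as the smallest list, 19 regions of these genes were left and none at Ciita. Of these, 2 were called in both LysMCre+ libraries alone, 20.1 kb upstream of H2-Oa and 14.4 kb upstream of Cd74, against 7.82% of 22300 regions. Another 2 were called in both Rxrab fl/fl libraries alone, the second H2-DMa promoter and the H2-Aa promoter, against 7.22% of regions. At an equal number of peaks the counts in the 2 directions were thus equal.

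The size of the change could be tested for the 10 regions called in all 4 libraries, by subtracting each library's median from log2 fold enrichment and fitting limma over all 15199 such regions. With 2 libraries a genotype, an exact permutation test of a single region could not give a two-sided p below 0.333. A call needed a log2 fold change past 1 and a p under 0.05 after Benjamini-Hochberg adjustment. None of the 10 regions passed in either direction, against 6 of all regions (0.0395%) higher and 7 (0.0461%) lower in LysMCre+ Rxrab fl/fl. At an unadjusted p under 0.05, 2 of the 10 passed, against 22.01% of all regions. The log2 fold changes, LysMCre+ Rxrab fl/fl minus Rxrab fl/fl, ran from −0.84 to 0.46 with a median of −0.15, beside a median of −0.09 over all regions, and their adjusted p values from limma ran from 0.114 to 0.917.

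The 2 regions with the lowest p were the H2-DMa promoters. The first had a log2 fold change of −0.84 ± 0.29 (SE; adjusted p = 0.124 from limma) and the second of −0.77 ± 0.25 (adjusted p = 0.114 from limma). The highest value was that of the H2-Ob intronic region, at 0.46 ± 0.24 (adjusted p = 0.271 from limma). In centred values the Rxrab fl/fl libraries lay above both LysMCre+ libraries at 3 of the 10 regions, the 2 H2-DMa promoters and H2-DMa exon 2, against 32.9% of all regions. The reverse held at 1 of the 10, the H2-Ob intronic region, against 22.3%. Both counts stood near or below the background.

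For the H2-Aa, H2-DMb2 and H2-DMb1 promoters and H2-DMa exon 2 the intervals were narrower. The H2-Ab1 and H2-Eb1 promoters were not called in all 4 libraries and had no interval in this fit. The 95% interval of the log2 fold change from limma was −0.62 to 0.30 at the H2-Aa promoter, −0.54 to 0.37 at the H2-DMb2 promoter, −0.35 to 0.63 at the H2-DMb1 promoter and −0.73 to 0.16 at H2-DMa exon 2. None of these intervals reached a change of 1 on the log2 scale, whereas those of both H2-DMa promoters did. This held for the fit of 4 libraries: without Rxrab fl/fl replicate 3, on the regions called in the other 3 libraries, the interval ran from −1.08 to 0.022 at the H2-Aa promoter (log2 fold change −0.53) and from −1.12 to −0.044 at H2-DMa exon 2 (−0.58). The H2-Ab1 region 1.58 kb upstream had −0.55 with an interval of −1.22 to 0.13. The call there depended on 1 library. Without Rxrab fl/fl replicate 1, with the lone library assumed to vary like the others, 3 regions passed as lower in LysMCre+ Rxrab fl/fl: the H2-Ab1 region with a log2 fold change of −1.14 and the H2-DMa promoters with −1.22 and −1.10. Without Rxrab fl/fl replicate 3 the same regions had 0.052, −0.46 and −0.44, and none passed.

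With pileup tested instead, 0 of the 10 regions passed again, and 0 had an unadjusted p under 0.05 in limma, against 33.2% of all regions. Over all regions 2.49% were higher and 4.98% lower in LysMCre+ Rxrab fl/fl on that scale. The H2-DMa promoters changed by −0.47 and −0.32 (adjusted p of 0.201 and 0.408 from limma) and the H2-Ob intronic region by 0.63 (adjusted p = 0.217 from limma).

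**Figure D4:**
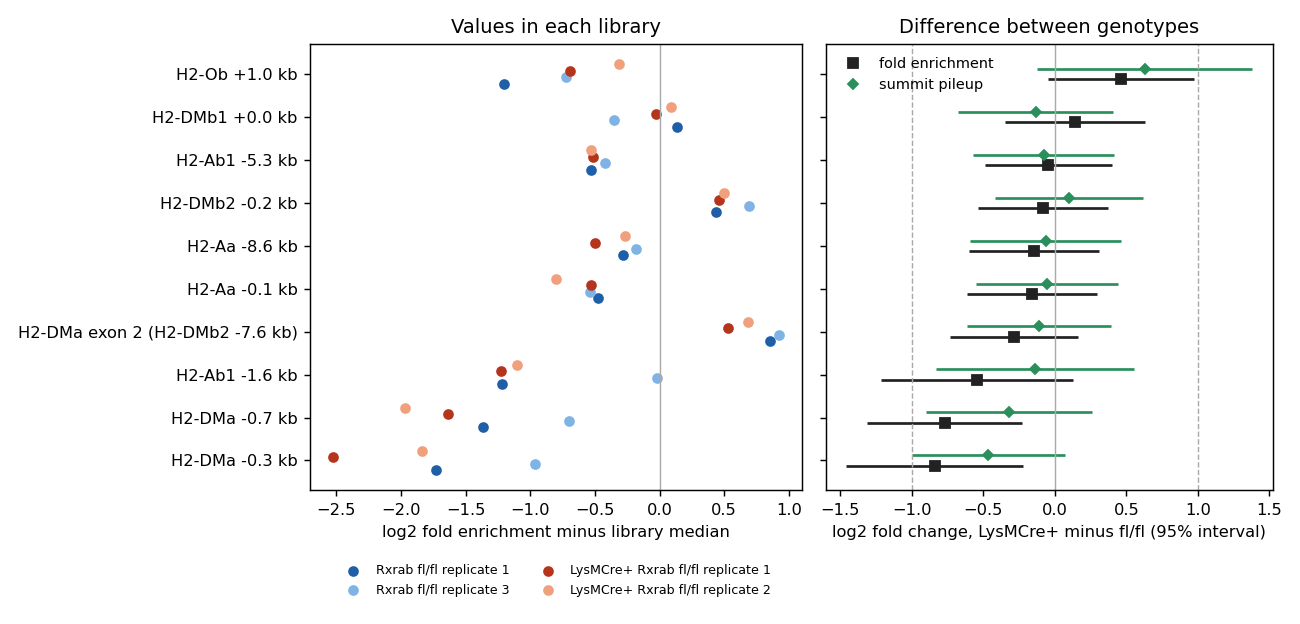
The 10 regions called in all 4 libraries. Left, log2 fold enrichment minus the library median, 1 point a library; right, the log2 fold change (LysMCre+ Rxrab fl/fl minus Rxrab fl/fl) with its 95% interval from limma, on fold enrichment and on summit pileup, with dashed lines at −1 and 1. The fold enrichment intervals of the H2-DMa promoters lie below 0 and the other 8 include 0.

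Cd74, Ciita, H2-Oa and H2-Eb1 had no region in that test, so the comparison was repeated without Rxrab fl/fl replicate 3 on the 33263 regions called in the other 3 libraries, a choice made after seeing the data. It sets 1 Rxrab fl/fl library against 2, and assumes that the lone library varies like the others. None of the 27 regions of these genes passed in either direction, against 2.21% of all regions higher and 1.21% lower in LysMCre+ Rxrab fl/fl, and 7 of the 27 (25.9%) had an unadjusted p under 0.05, against 26.7% of all. The Cd74 promoter had a log2 fold change of −0.86 (interval −1.40 to −0.32; adjusted p = 0.0684 from limma) and the Cd74 region 14.4 kb upstream of 0.76 (0.23 to 1.29; adjusted p = 0.0848 from limma). The Ciita intronic region had 0.30 (−0.27 to 0.87; adjusted p = 0.465 from limma). The lowest adjusted p was 0.0623, at an H2-Ob region 10.0 kb downstream with a log2 fold change of 0.88.

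Other genes of antigen presentation were read from a list. It held 37 genes in 250 regions: transcription factors, proteases, class I genes, ubiquitin ligases, costimulators, interferon gamma receptors and cluster neighbours. On fold enrichment 0 of their 59 regions called in all 4 libraries passed in limma in either direction, with 20 (33.9%) at an unadjusted p under 0.05, against 22.01% of all regions, and a median log2 fold change of −0.15, against −0.09. The region shared by Brd2 and the first H2-DMa promoter is counted among these 59 and also among the 10 tested above. On the summit pileup 2 (3.39%) passed, both lower in LysMCre+ Rxrab fl/fl, against 4.98% of all regions lower. 1 of them was a region 10.0 kb downstream of the start of Ctsb, which encodes the lysosomal protease cathepsin B, with pileups of 201, 35, 87 and 62 and a log2 fold change of −1.06 (adjusted p = 0.0272 from limma). Of the 250 regions, 38 (15.2%) were called in both LysMCre+ libraries alone, below the 22.8% of all regions. The promoters of Rfx5, Rfxank and Rfxap, which encode the X box complex, were open in all 4 libraries, that of Rfx5 at 22.8, 13.9, 23.8 and 19.1.

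Markers of cell types that a sort could hold were read beside these values. The promoters of large peritoneal macrophage genes (9 of 10 on the chromosomes analysed) were called at 7, 6, 8 and 8 genes, with summed fold enrichments of 67.4, 37.9, 68.0 and 63.7, and that of Gata6, the factor that defines these cells, was called in every library at 11.3, 7.61, 5.80 and 8.61. The promoters of 8 small peritoneal macrophage or monocyte genes, cells that carry more class II, were called at 2, 1, 7 and 7 genes, with summed fold enrichments of 20.2, 6.37, 74.1 and 54.6. That of Ccr2 was called in none. All of those genes but Cx3cr1 were named by the study as raised in RXR-deficient LPMs, so the list is not independent. Over all annotated genes, a promoter was called at 44.3%, 32.6%, 49.9% and 47.5%. More of these marker promoters were called in the LysMCre+ libraries, as were more Ciita regions (2, 0, 6 and 6 of 8). Of all regions, 52.02%, 21.9%, 90.7% and 77.2% were called in the same order. The 6 marker regions called in all 4 libraries lay at Irf4, Mrc1 and Cx3cr1, and none passed in limma. That test could not include Ccr2, Retnla, Fcrls, Cd209d or Clec4b1, which had no region called in all 4 libraries. The part of small peritoneal macrophages or monocytes in the Ciita counts was not tested.

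The promoters of 10 B cell genes were called at 1, 0, 2 and 1 genes, with summed fold enrichments of 11.7, 0, 20.6 and 10.4, and Cd79a had no region in any library. Those of 7 dendritic cell genes were called at 3, 1, 4 and 3 genes (22.7, 7.74, 35.9 and 25.7), with none at Xcr1, Clec9a or Ccr7, and those of 6 T cell genes at 1, 0, 1 and 1 genes (5.76, 0, 7.19 and 3.60), with Tcf7 the gene called. In bulk libraries, fewer cells with an open region and a less open region per cell cannot be told apart.

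In the other motif searches of the 51 summit windows, 100 bp either side and on both strands, the matches were few. The interferon gamma activated site TTCNNNGAA was in 0 of 51, against 5.57% of all regions, and the interferon-stimulated response element in 0 of 51, against 3.01%. The RXR half-site repeats DR1 and DR5 were in 0 of 51, against 0.358% and 0.311%. GATA sites (AGATAA) were in 3 (5.88%, against 6.43%), and the CTCF consensus was in 1, the H2-Ob region 3.76 kb upstream, against 3.90%.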

How the data were processed

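ATAC-seq libraries of sorted LPMs, 2 per genotype, were analysed from deposited peak lists. The authors trimmed adaptors with cutadapt, aligned paired reads with Bowtie2 (mm10), filtered them at a mapping quality of 30, dropped duplicates and chromosomes M, X and Y, and ran MACS2 2.1.1 on each library (extension 200 bp, q value 0.05). The deposited lists give, per peak, a fold enrichment over local background (a ratio), its p-value as −log10 and its q-value as −log10. The study's reporting summary states that samples that did not cluster with their group were left out, so the spread may be understated. Read counts are not analysed here, so the authors' test on counts was not repeated.

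Fold enrichment and −log10 p were solved for the whole-number pileup and the background of each summit (pseudocount 1, within 0.005 of the deposited −log10 p). Peaks were merged and placed on 43783 RefSeq transcripts of 24963 genes of the same build. Log2 fold enrichment was tested with limma 3.58.1 (lmFit, eBayes) in R 4.3.3, with Benjamini-Hochberg adjustment over all regions called in all 4 libraries. Merging, solving, motif search and limma were tested on simulated data. Scripts used Python 3.11.15 with numpy 2.4.6, scipy 1.17.1 and pandas 2.3.3. The genes, lists and tests were chosen with earlier results of these data known. Regions named are those at a start site, the strongest of each gene, those past a threshold or called in 1 genotype only, and the 5 largest changes. Other regions are given as further regions of their gene and were chosen after their values were seen. Of the other antigen presentation genes, those with a region past the threshold were named, except 1 result that is not reported here; Rfx5, Rfxank and Rfxap were added after their values were seen.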

Additional observations from a re-analysis of the deposited data

How the results depend on the processing

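No paired analysis was possible because the labels do not pair libraries across the genotypes, and a shared replicate number is not a pair. The 51 regions called in both LysMCre+ libraries alone numbered 8, and 8 again at a q value of 0.01, at an overlap of 100 bp and with peaks cut to their summits, 6 by nearest start site alone, 2 at an equal number of peaks and 8 to 25 with each library left out. Those called in both Rxrab fl/fl libraries alone numbered 0, 2 at an equal number of peaks and 0 to 1 with a library left out. Over all regions, the 16133 of the first kind became 1743 at an equal number of peaks and 16158 to 34259 with a library left out. The 32 of the second kind became 1610 and 55 to 1257, and 249 with peaks cut to 100 bp either side of the summit. Leaving out a library lowers the number that must hold or lack a call. The cause of the other changes was not tested.

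No region of these genes passed the limma threshold under any alternative but 1: without Rxrab fl/fl replicate 1, 3 were lower in LysMCre+ Rxrab fl/fl (range 0 to 3 over the libraries left out). Over all regions, 6 higher and 7 lower became 379 and 757 on the summit pileup, 61 and 76 with a mean-variance trend, 735 and 402 without Rxrab fl/fl replicate 3 on the regions of the other 3 libraries, 0 and 0 without centring or with regions called in at least 2 libraries, 9 and 2 with quantile normalization, and 3 to 244 higher and 10 to 540 lower with a library left out. The cause was not tested. Of the 120 values of the 10 log2 fold changes under the 12 alternatives, 104 kept their direction and side of the threshold, 3 newly passed it and 13 changed sign, none of them called. Without centring the sign changed at H2-DMa exon 2 (0.084), the H2-DMb2 promoter (0.28), H2-Ab1 5.31 kb upstream (0.32), the H2-Aa promoter (0.21) and H2-Aa 8.60 kb upstream (0.22). On the pileup it changed at the H2-DMb2 (0.10) and H2-DMb1 promoters (−0.13). With each library left out, it changed only without Rxrab fl/fl replicate 3, at the H2-DMb2 promoter (range −0.21 to 0.042), the H2-DMb1 promoter (−0.10 to 0.38, and −0.44 on the regions of the other 3 libraries) and H2-Ab1 5.31 kb (−0.10 to 0.010) and 1.58 kb upstream (−1.14 to 0.052). With quantile normalization it changed at H2-Ab1 5.31 kb upstream (0.011).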
